A study of Arabidopsis thaliana with 6 samples.

Results

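Of the 27655 genes counted in cells collected as Arabidopsis thaliana male meiocytes, 37 were near-silent in the strain Ler and expressed in knu-2. They were chosen by their own values in these libraries. A gene was taken when its mean was under 0.3 CPM (counts per 1000000 counts of the library) over the Ler libraries and its value was 2 CPM or more in each knu-2 library. Organelle genes and 4 others (AT3G10525, AT1G17710, AT4G36350 and AT2G11810) were left out of the set. AT3G10525 enters only where it overlaps one of the 37. Because the thresholds used the contrast between the genotypes, the values of the 37 genes are given as a description with no test.

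Ler stands for Landsberg erecta, a common laboratory strain. The other genotype, knu-2, has a mutant allele of the zinc finger gene KNUCKLES (KNU). The strain background of knu-2 is not stated in the labels. Anthers of stages 4 to 7 were squeezed open with forceps and the freed cells were taken for poly(A) RNA sequencing, with no sort named, as 3 libraries per genotype. The labels call the libraries biological replicates without naming separate plants, so a p-value here reflects the spread among collections only.

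KNU itself was at 65.4, 61.5 and 79.6 CPM in the Ler libraries and at 14.8, 9.08 and 4.91 CPM in the knu-2 libraries. It was lower in knu-2, with a log2 fold change of -3.16 ± 0.36 (SE, n = 3 per genotype, edgeR adjusted p = 0.000128). Library totals were between 18070435 and 27995200 counts. In edgeR's quasi-likelihood fit over all 18422 genes with enough counts, 23.6% were called higher in knu-2 and 24.4% lower, at a Benjamini-Hochberg adjusted p under 0.05. Of the 19 meiocyte genes on the marker list, 16 were lower in knu-2 and 1 was higher (18 and 0 by DESeq2). The 1 higher call, of SYN1, was also lost with DESeq2 size factors and on leaving out any 1 library other than knu-2 replicate 2. Their summed level was 5257 to 6088 CPM in Ler and 1571 to 2475 CPM in knu-2. No member of that list was at 0. In bulk libraries, fewer cells of a type and less RNA per cell cannot be told apart.

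Meiocytes lie inside the tapetum, the layer of the anther that feeds them and makes the wall and coat of the pollen. KNU is known as a repressor that ends stem cell activity in the floral meristem by acting on WUSCHEL. The reference genome of Arabidopsis is that of another strain, Columbia, and strains can differ by deletions, rearrangements and transposon insertions. A gene with no count in Ler may be silent there, or its Ler copy may differ from the reference or be missing, and in counts these cannot be told apart. The same holds for the counts of knu-2 if part of its genome came from another strain.

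For 4 genes the bases before the annotated start are given here. AT1G36920 and AT1G36922 are neighbours with no Ler count, AT2G16960 is the most abundant of the 37, and AT5G03545 is annotated as a phosphate starvation gene. The sequences are from TAIR10.1, all on the + strand, 5′ to 3′. Capitals mark matches to 3 short motifs: GNATATNC (P1BS, the site bound by phosphate starvation regulators), TTGAC (the W-box of WRKY factors) and CCNNNNNNGG (the CArG box of MADS factors, with any base in its middle).

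AT1G36920, chr1:13982745-13982994: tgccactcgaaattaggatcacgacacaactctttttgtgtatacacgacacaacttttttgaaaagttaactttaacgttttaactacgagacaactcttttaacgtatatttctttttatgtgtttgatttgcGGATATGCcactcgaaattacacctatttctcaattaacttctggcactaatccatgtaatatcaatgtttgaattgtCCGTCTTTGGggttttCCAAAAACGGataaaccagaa

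AT1G36922, chr1:13984425-13984575, the whole stretch between the genes: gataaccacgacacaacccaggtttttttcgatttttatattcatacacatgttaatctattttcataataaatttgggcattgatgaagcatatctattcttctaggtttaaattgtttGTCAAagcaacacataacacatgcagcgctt

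AT2G16960, chr2:7364433-7364682: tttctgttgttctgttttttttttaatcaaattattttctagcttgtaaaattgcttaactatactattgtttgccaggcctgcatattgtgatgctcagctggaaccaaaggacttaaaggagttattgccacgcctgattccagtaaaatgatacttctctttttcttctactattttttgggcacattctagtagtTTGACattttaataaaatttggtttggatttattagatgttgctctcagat

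AT5G03545, chr5:894332-894581: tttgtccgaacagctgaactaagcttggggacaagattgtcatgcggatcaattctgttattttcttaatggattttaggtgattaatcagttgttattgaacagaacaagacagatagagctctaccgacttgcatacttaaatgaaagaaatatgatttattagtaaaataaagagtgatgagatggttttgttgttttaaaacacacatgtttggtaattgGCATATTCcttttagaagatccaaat

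The stretch before AT1G36920 held 1 match to P1BS and 2 to the CArG pattern, whereas the stretch before AT5G03545 held only a P1BS match. Those before AT1G36922 and AT2G16960 each held a W-box match. Over the 250 bases before each of the 37 genes, read on both strands, P1BS was found in 3 (8.11%), against 5.46% of 27444 genes. The third was AT4G14245. The W-box was found in 16 (43.2%), against 44.9% of all genes, and the CArG pattern in 5 (13.5%), against 17.5%. The G-box CACGTG, which basic helix-loop-helix and bZIP factors bind, was in 4 (10.8%), against 6.49%. TATAAA on the given strand was in 10 (27.0%), against 32.9%. The median GC content of the 250 bases was 31.2%, both for the 37 genes and for all genes. A match is a description of the letters and not of a bound site.

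All 37 genes passed the filter on low counts and all were called higher in knu-2 by edgeR, against 23.6% of all genes tested (48.1% were called in either direction). Nothing is read from that count, since the same values chose the genes. Their summed level was 3.25, 4.11 and 6.61 CPM in the 3 Ler libraries and 294, 357 and 280 CPM in the 3 knu-2 libraries. The highest value of any of them in a Ler library was 0.807 CPM, in WNK7. The thresholds allow no overlap between Ler and knu-2 libraries for any of the 37, so nothing is read from its absence. Among all genes tested, 39.5% had every knu-2 library above every Ler library. Fitted log2 fold changes ran from 2.94 to 12.26, with a median of 5.19, against 0.10 over all genes tested. In knu-2 the genes were low to moderate, with mean levels of 2.46 to 31.1 CPM and a median of 4.83 CPM. Of the 37, 9 had a mean of 10 CPM or more and 20 were under 5 CPM.

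**Figure D1:**
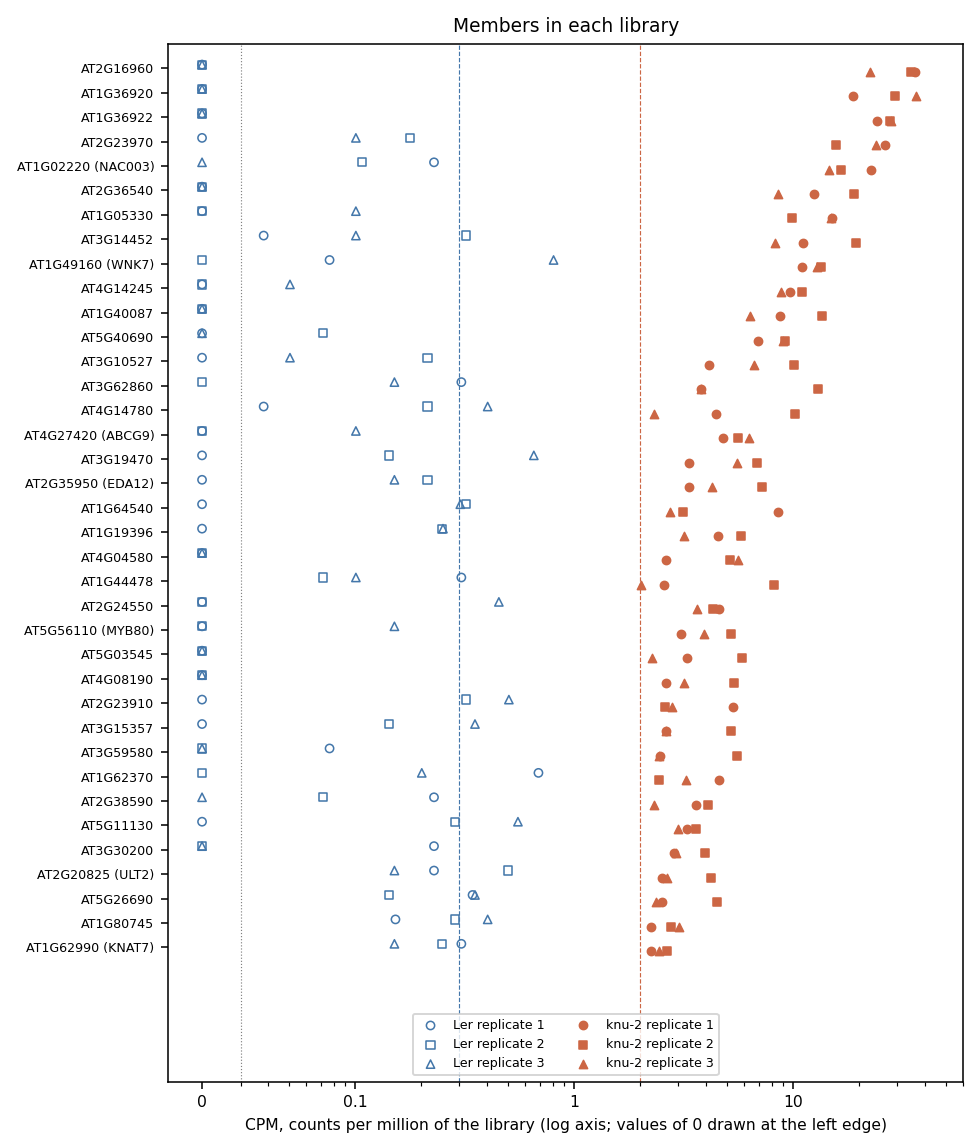
Level of each of the 37 genes in each of the 6 libraries, in CPM on a log axis, with values of 0 drawn at the left edge. Open symbols are Ler and filled symbols knu-2, and the dashed lines mark 0.3 CPM, the limit on the Ler mean, and 2 CPM, the limit on each knu-2 library. The 8 genes with all open symbols at the left edge had no Ler count, and all filled symbols lie at 2.03 CPM or more.

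The thresholds cut through a continuous range. Just inside the Ler limit were AT1G62370, a RING/U-box protein with a Ler mean of 0.297 CPM, and WNK7, with 0.294 CPM. Just outside it were AT4G03157, with 0.301 CPM, and AT1G19397, with 0.311 CPM. On the knu-2 side, the cyclophilin AT1G44478 and KNAT7 were just inside, with lowest libraries at 2.03 and 2.25 CPM, and AT1G18910 and AT4G18280 were just outside, with 1.98 and 1.87 CPM. With the genotypes exchanged, 27 genes met the same thresholds. Both counts used CPM without library scaling. With scaling, 29 of the 37 genes met the thresholds, and no scaled count was taken with the genotypes exchanged, so 37 and 27 are not compared. Of those 27, 2 had no count in any knu-2 library, whereas 8 of the 37 had none in any Ler library.

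The 8 genes with no count in Ler included the most abundant of the set. A count of 0 allows up to 3 counts, or 0.107 to 0.151 CPM in a Ler library. Folds below are ratios of mean CPM against a floor of 3 counts over the 3 Ler libraries together, and cover counting error only. AT2G16960 (chr2:7364683-7368963, 19 exons) encodes an ARM repeat protein, a fold built of stacked helices that binds other proteins. It was at 0 CPM in each Ler library and at 36.3, 34.5 and 22.6 CPM in knu-2, at least 767-fold higher. Replicate 3 was the lowest of the knu-2 libraries.

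AT1G36920 and AT1G36922 are uncharacterized genes that lie 151 bp apart on the same strand, at chr1:13982995-13984424 and chr1:13984576-13985480. They were the only members with no more than 1 other gene between them. AT1G36920 was at 0 CPM in each Ler library and at 18.8, 29.2 and 36.6 CPM in knu-2, at least 696-fold higher. AT1G36922 was at 0 CPM in each Ler library and at 24.3, 27.9 and 28.1 CPM in knu-2, at least 660-fold higher. Both genes had their lowest knu-2 value in replicate 1 and their highest in replicate 3, but AT1G36922 varied much less. Per kb of gene model, their mean knu-2 levels were 31.3 and 38.6 CPM, the third and second highest of the 37 genes.

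AT2G36540 (chr2:15325237-15326449) encodes a haloacid dehalogenase-like hydrolase, a large family of mostly phosphatases. It was at 0 CPM in each Ler library and at 12.5, 19.1 and 8.53 CPM in knu-2, at least 330-fold higher. AT1G40087 (chr1:14999615-15001868) is annotated as a plant transposase of the Ptta/En/Spm family, a protein that moves DNA elements. It was at 0 CPM in each Ler library and at 8.74, 13.6 and 6.38 CPM in knu-2, at least 236-fold higher. In both genes replicate 2 was the highest knu-2 library and replicate 3 the lowest.

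The other 3 genes without a Ler count were low in knu-2. AT4G04580 (chr4:2293704-2294906), a homeodomain-like protein of the kind that binds DNA, was at 0 CPM in each Ler library and at 2.64, 5.15 and 5.60 CPM in knu-2, at least 110-fold higher. AT5G03545 (chr5:894582-895517), annotated as expressed in response to phosphate starvation, was at 0 CPM in each Ler library and at 3.30, 5.87 and 2.28 CPM in knu-2, at least 94.1-fold higher. AT4G08190 (chr4:5174523-5175476), annotated as a P-loop nucleoside triphosphate hydrolase, was at 0 CPM in each Ler library and at 2.64, 5.37 and 3.19 CPM in knu-2, at least 92.0-fold higher. The lowest knu-2 value of all 8 genes was that of AT5G03545 in replicate 3, 2.28 CPM.

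A further 6 genes had 1 to 3 counts over all Ler libraries, too few for a firm fold. AT1G05330, an uncharacterized single-exon gene, was at 0, 0 and 0.101 CPM in Ler and at 15.1, 9.96 and 15.0 CPM in knu-2. AT4G14245, annotated as a structural constituent of the ribosome, was at 0, 0 and 0.0504 CPM in Ler and at 9.67, 11.0 and 8.84 CPM in knu-2. AT5G40690, annotated as trithorax-like, was at 0, 0.0714 and 0 CPM in Ler and at 6.92, 9.19 and 9.01 CPM in knu-2. These 3 genes varied little among the knu-2 libraries, and the Ler values each rest on reads of a lone library.

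MYB80 (AT5G56110, chr5:22719191-22720664) encodes a MYB transcription factor that the tapetum needs for pollen wall formation. It was at 0, 0 and 0.151 CPM in Ler and at 3.08, 5.20 and 3.92 CPM in knu-2, a ratio of pooled counts per library total of 99.9, for which the 95% counting interval was 33.8 to 488. ABCG9 (AT4G27420, chr4:13712199-13714797) encodes an ABC transporter that acts in the tapetum to supply the pollen coat. It was at 0, 0 and 0.101 CPM in Ler and at 4.78, 5.59 and 6.34 CPM in knu-2, and the same ratio was 208 (interval 57.2 to 1727). In both genes the reads of Ler came from replicate 3, and every knu-2 library was above it, which the thresholds require. The sixth gene, AT3G59580, encodes an RWP-RK protein of a family of plant transcription regulators. It was at 0.0765, 0 and 0 CPM in Ler and at 2.47, 5.53 and 2.46 CPM in knu-2.

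The other 23 genes had between 4 and 23 counts over the 3 Ler libraries. The highest in knu-2 were AT2G23970, NAC003, AT3G14452 and WNK7. AT2G23970, annotated as a class I glutamine amidotransferase-like protein, was at 0, 0.179 and 0.101 CPM in Ler and at 26.3, 15.8 and 24.0 CPM in knu-2. NAC003 (AT1G02220), a transcription factor of the plant NAC family, was at 0.229, 0.107 and 0 CPM in Ler and at 22.9, 16.6 and 14.6 CPM in knu-2. WNK7 (AT1G49160), a protein kinase of the With-No-Lysine family, was at 0.0765, 0 and 0.807 CPM in Ler and at 11.0, 13.4 and 12.9 CPM in knu-2. NAC003 and AT2G23970 were highest in knu-2 replicate 1, and the knu-2 values of WNK7 lay close together.

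AT3G14452 is a gene model of only 117 bp, the shortest described here. It was at 0.0382, 0.321 and 0.101 CPM in Ler and at 11.1, 19.4 and 8.28 CPM in knu-2. Its mean knu-2 level of 110 CPM per kb was the highest of the 37 genes per length. It lies 17 bp from the end of CID9 on the same strand. CID9, which encodes a protein with a domain that binds the poly(A)-binding protein, was itself at 1.49, 2.64 and 1.71 CPM in Ler and at 79.9, 93.6 and 72.4 CPM in knu-2. Reads of both genes were high in the same libraries, and whether the short model holds reads of CID9 was not tested.

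By keywords in the annotation, 4 of the 37 genes (10.8%, against 6.13% of 27445 annotated genes) were transcription factors: NAC003, MYB80, KNAT7 and AT1G80745. The keywords left out AT3G59580, of the RWP-RK family, and AT4G04580, a homeodomain-like protein. KNAT7 (AT1G62990), a KNOX homeobox protein known for restraining secondary wall formation, was at 0.306, 0.250 and 0.151 CPM in Ler and at 2.25, 2.66 and 2.46 CPM in knu-2. AT1G80745, annotated as related to TFIIIC, was at 0.153, 0.286 and 0.403 CPM in Ler and at 2.25, 2.77 and 3.02 CPM in knu-2. Of the 4, NAC003 was the most abundant per length, at 11.3 CPM per kb, against 1.61 CPM per kb for KNAT7. ULT2 (AT2G20825), a SAND domain relative of the meristem regulator ULTRAPETALA1, was at 0.229, 0.500 and 0.151 CPM in Ler and at 2.53, 4.21 and 2.67 CPM in knu-2.

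F-box proteins, which select targets for ubiquitin ligases, numbered 3 (8.11%, against 2.38% of all genes). AT3G19470 was at 0, 0.143 and 0.656 CPM in Ler and at 3.35, 6.86 and 5.56 CPM in knu-2. AT1G64540 was at 0, 0.321 and 0.303 CPM in Ler and at 8.57, 3.15 and 2.76 CPM in knu-2. AT2G38590 was at 0.229, 0.0714 and 0 CPM in Ler and at 3.63, 4.10 and 2.33 CPM in knu-2. AT3G19470 and AT2G38590, which share 44.2% of their aligned residues, were both highest in knu-2 replicate 2, and AT1G64540 was highest in replicate 1.

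Transposon-related genes numbered 2 (5.41%, against 0.281% of all genes), both annotated as Ptta/En/Spm transposases. AT3G30200 was at 0.229, 0 and 0 CPM in Ler and at 2.86, 3.98 and 2.93 CPM in knu-2. Its protein is 84.6% identical to that of AT1G40087 over their alignment, so reads of the pair may be exchanged where the counting could not separate them. Kinases numbered 2 (5.41%, against 5.06%), WNK7 and AT4G14780. There was 1 transporter, ABCG9 (2.70%, against 2.51%), and 1 repeat protein, AT2G16960 (2.70%, against 3.87%). The other 14 keyword families, among them cytochromes P450, peroxidases, cell wall enzymes and proteases, held none of the 37. Those 4 families make up 0.904%, 0.368%, 1.82% and 1.90% of all genes, so their absence from the 37 says little. By keyword, AT2G36540 was not counted among phosphatases, nor AT5G11130 among cell wall enzymes. Shares of a set this small move by 2.70% with each gene.

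The remaining genes with Ler counts were EDA12, a gene named for arrested embryo sacs, AT3G10527, AT1G19396, AT3G62860, AT1G44478, AT2G24550, AT2G23910, AT3G15357, AT1G62370, AT5G11130 and AT5G26690. EDA12 was at 0, 0.214 and 0.151 CPM in Ler and at 3.35, 7.19 and 4.27 CPM in knu-2. AT5G26690, a small heavy metal transport and detoxification protein, was at 0.344, 0.143 and 0.353 CPM in Ler and at 2.53, 4.48 and 2.37 CPM in knu-2. AT5G11130, an exostosin family protein, was at 0, 0.286 and 0.555 CPM in Ler and at 3.30, 3.60 and 2.97 CPM in knu-2. Over these 11 genes no knu-2 value was below 2.03 CPM.

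Overlapping gene models limit some of the 37 genes. AT3G10527 lies wholly inside the exon of AT3G10525 (LGO), on the opposite strand, sharing all 333 of its exon bases with the 826 of LGO. It had 0, 6 and 1 counts in Ler and 75, 182 and 154 in knu-2, beside 0, 7 and 1 and 111, 352 and 187 counts for LGO. Both had no count in Ler replicate 1 and were highest in knu-2 replicate 2. Elsewhere in these files, 2 pairs of genes on opposite strands share at least 90% of their exon bases and hold 100 counts or more, and the counts within each pair differed by a factor of at most 1.02. The reads of AT3G10527 and LGO cannot be told apart. AT1G19396 shares its strand and 937 bp of its span with AT1G19397, which narrowly missed the Ler limit, so their reads are uncertain too. AT5G26690 shares 127 bp with AT5G26680 on the opposite strand, which held 3739 counts over knu-2, against 182 for AT5G26690. ULT2 shares 13 bp with AT2G20820 on the opposite strand (16182 counts against 184), and WNK7 15 bp with AT1G49140 (3011 against 742). The part of such shared bases in their counts was not tested. In all, 6 of the 37 genes (16.2%) overlap another gene model, against 28.3% of all genes.

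The knu-2 libraries did not contribute evenly. Replicate 2 was the highest for 24 of the 37 genes (64.9%), replicate 1 for 8 and replicate 3 for 5. The comparison was with 7927 other genes at 2 CPM or more in each knu-2 library and a knu-2 mean of at most 31.1 CPM. That limit is the highest mean of the 37 genes. Among these others, replicate 2 was the highest for 48.4%. With library scaling, replicate 2 was the highest for 20 of the 37. The 48.4% is without scaling, and no scaled share of the other genes was taken to set beside the 20. The median ratio of the highest to the lowest knu-2 library was 1.89 over the 37 genes and 1.66 over the others. The summed level of the 16 photosynthesis genes on the list for green tissue was 4444 CPM in knu-2 replicate 2, against 1701 and 2086 CPM in knu-2 replicates 1 and 3 and 1749 to 2415 CPM in Ler. That of 7 heat shock genes was 1440 CPM in knu-2 replicate 3, against 416 and 329 CPM in the others and 803 to 881 CPM in Ler. The part of either in the levels of the 37 genes was not tested.

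The largest spread was that of AT4G14780, a protein kinase, at 4.45, 10.2 and 2.33 CPM in knu-2, a ratio of 4.40. AT1G44478, a cyclophilin of the class that turns proline bonds, was at 2.58, 8.19 and 2.03 CPM, a ratio of 4.04. AT3G62860, an alpha/beta hydrolase, was at 3.79, 13.1 and 3.79 CPM, a ratio of 3.45. In all 3 genes replicate 2 was the highest library. The smallest spreads were those of AT1G36922, with a ratio of 1.16, KNAT7, with 1.18, and AT5G11130, with 1.21.

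**Figure D2:**
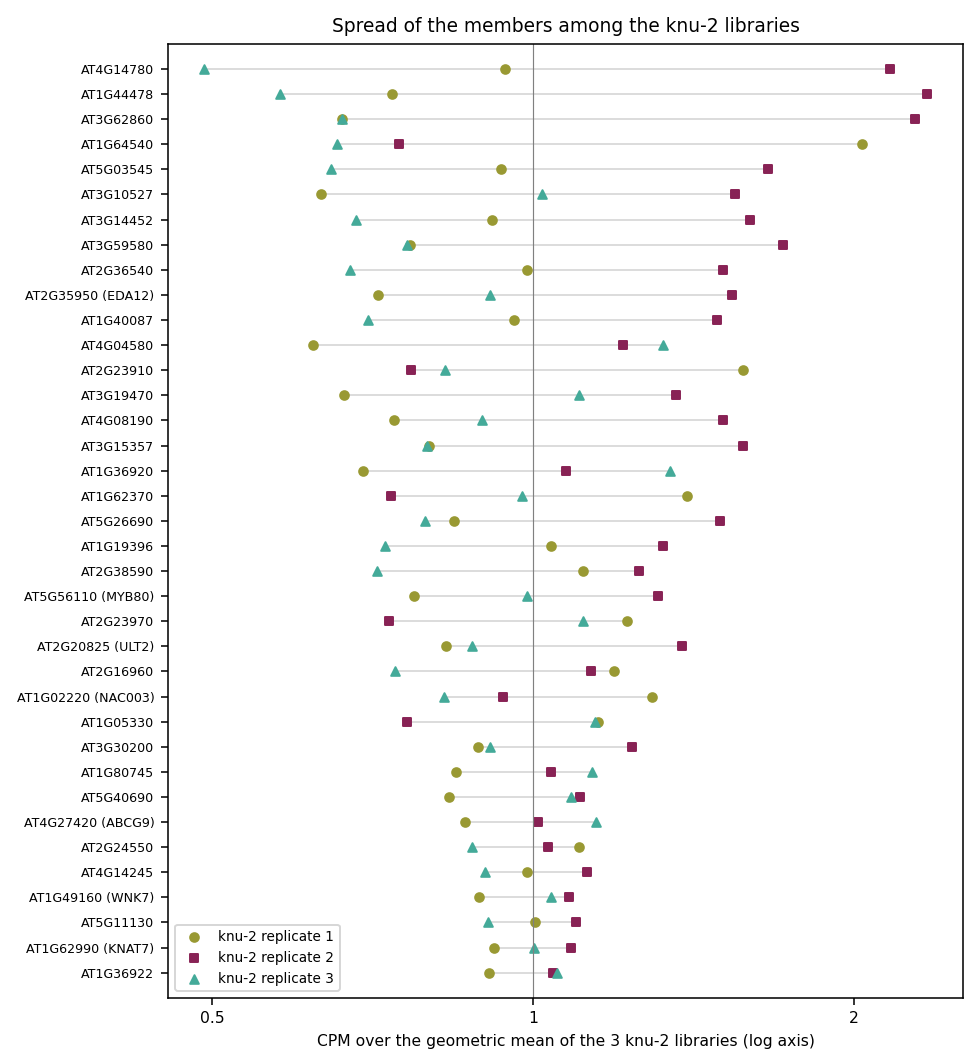
Level of each gene in each knu-2 library divided by the geometric mean of the 3 knu-2 libraries, on a log axis, ordered by the ratio of highest to lowest. Replicate 2 (squares) lies farthest to the right for 24 of the 37 genes, and the ratio runs from 1.16 at the bottom to 4.40 at the top.

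Gene density around the set was taken as the number of other genes within 100 kb. The 8 genes without a Ler count had a median of 23, against 54 for the 29 with Ler counts and 54 for all genes. AT1G40087 had 4, AT1G36920 and AT1G36922 had 15 each, AT4G08190 had 19 and AT4G04580 had 27. At or below 40 genes, the 10th percentile of all genes, were 5 of the 8 and 9 of the 37, against 11.2% of all genes. AT2G16960, AT2G36540 and AT5G03545, with 42, 50 and 56, did not lie in such a stretch. The 37 genes were spread over all chromosomes, with 12, 8, 7, 5 and 5 on chromosomes 1 to 5. Their median model length was 1320 bp, against 1553 bp for all genes, and 10 (27.0%) encode a protein of 150 residues or fewer, against 16.3%. Single-exon models were 8 (21.6%), against 18.9%, and products annotated only as uncharacterized were 6 (16.2%), against 11.1%.

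**Figure D3:**
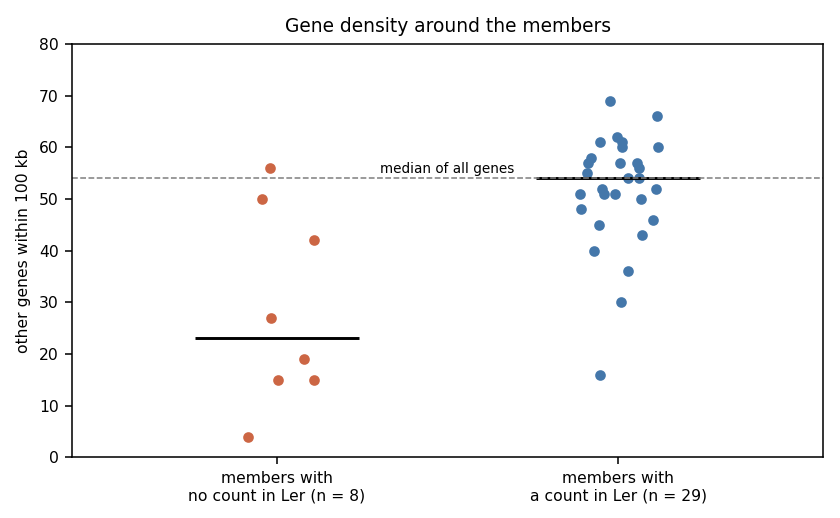
Number of other annotated genes within 100 kb of each of the 37 genes, for the 8 with no Ler count and the 29 with a Ler count. Bars are medians, 23 and 54, and the dashed line is the median of all genes, 54. The gene with no Ler count at 4 is AT1G40087.

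The genes beside the 37 were not used in choosing them. AT3G10525 (LGO), which overlaps AT3G10527 and had been left out of the set, was not counted as a neighbour. Its log2 fold change was 6.31 (edgeR adjusted p = 0.000178). Of the other 71 neighbours, 41 had enough counts for the fit. Of these, 14 (34.1%) were called higher in knu-2, 9 lower and 18 neither, and the median log2 fold change was 0.29, against 23.6% higher and a median of 0.10 over all genes tested. Without neighbours that overlap one of the 37, a set chosen after seeing the data, 12 of 38 (31.6%) were higher. With no scaling beyond library totals, which raised the median of all genes by 0.32, 18 neighbours were higher and 6 lower, and the share of calls that were higher went from 49.2% to 63.7% over all genes.

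The neighbour with the smallest p was CID9, the gene beside AT3G14452 described above, higher in knu-2 by 5.06 ± 0.25 on the log2 scale (SE, n = 3 per genotype, edgeR adjusted p = 2.31e-06). ORP1C, an oxysterol-binding protein relative 415 bp from AT4G08190, was lower, with 310, 276 and 258 CPM in Ler against 99.3, 92.6 and 69.2 CPM in knu-2 (log2 fold change -2.01 ± 0.18, edgeR adjusted p = 1.51e-05). AT1G80750, a ribosomal protein of the L30/L7 family 187 bp from AT1G80745, was higher, with 24.1, 26.6 and 31.4 CPM in Ler against 104, 127 and 120 CPM in knu-2 (log2 fold change 1.78 ± 0.17, edgeR adjusted p = 1.70e-05). For each of the 3, all libraries of one genotype lay above all of the other. Nothing is read from that, since the 3 were named by smallest p.

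NAC004, which lies 4244 bp from its relative NAC003 and was picked out after its values were seen, missed the Ler limit. It was at 0.229, 0.321 and 0.757 CPM in Ler and at 11.9, 11.1 and 32.2 CPM in knu-2, and was called higher (log2 fold change 5.15 ± 0.63, edgeR adjusted p = 9.86e-05). Its highest knu-2 library was replicate 3, whereas that of NAC003 was replicate 1. The genes on either side of AT1G40087 and of the pair AT1G36920 and AT1G36922 had no count in any of the 6 libraries. Nor did MEE15, on one side of AT2G16960.

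The closest relatives of the 37 genes by protein sequence were called in both directions, at shares near those of all genes tested. Outside the set, 29 genes were a best match by BLASTP, and 18 of them entered the fit. Of these, 5 (27.8%) were higher in knu-2, 4 (22.2%) lower and 9 neither, and the median log2 fold change was -0.09. Over all genes tested, 23.6% were higher and 24.4% lower, with a median of 0.10. ULT1, which shares 66.4% of aligned residues with ULT2 and restrains the size of the shoot and floral meristems, was at 30.2, 29.2 and 31.6 CPM in Ler and at 117, 126 and 118 CPM in knu-2. It rose by 1.67 ± 0.15 on the log2 scale (edgeR adjusted p = 1.49e-05). Every knu-2 library lay far above every Ler library, from which nothing is read, since ULT1 was named by smallest p.

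RABA2D, a small GTPase of membrane traffic, shares 90.3% of residues with AT4G08190 over 62 residues of the 127 in the latter. It was at 6.23, 8.72 and 9.43 CPM in Ler and at 23.1, 37.4 and 32.1 CPM in knu-2, and rose by 1.61 ± 0.25 (edgeR adjusted p = 0.000334). F2KP, an enzyme of fructose 2,6-bisphosphate turnover, shares 93.1% of residues with AT3G30200 over 116 of 510. It was at 215, 178 and 177 CPM in Ler and at 114, 120 and 98.9 CPM in knu-2, with a log2 fold change of -1.10 ± 0.16 (edgeR adjusted p = 0.000250). The match of AT3G30200 to F2KP covers a minor part of the transposase protein.

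Some relatives lie close to the gene itself on the chromosome, though not always as the nearest gene. TRN1, a transportin that carries proteins into the nucleus and shares 59.4% of residues with AT2G16960, was at 50.2, 44.5 and 55.8 CPM in Ler and at 94.2, 67.1 and 101 CPM in knu-2. It did not pass the test (log2 fold change 0.50 ± 0.21, edgeR adjusted p = 0.0724), but did without knu-2 replicate 2 (0.70, adjusted p = 0.00566), under the replicate block (0.47, adjusted p = 0.0426) and with no scaling (0.80, adjusted p = 0.00434). AT2G36550, which shares 75.8% with AT2G36540, was at 0, 0.107 and 0 CPM in Ler and at 1.65, 0.332 and 1.47 CPM in knu-2, too low for the fit. Its order among the knu-2 libraries was not that of AT2G36540, which was highest in replicate 2.

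**Figure D4:**
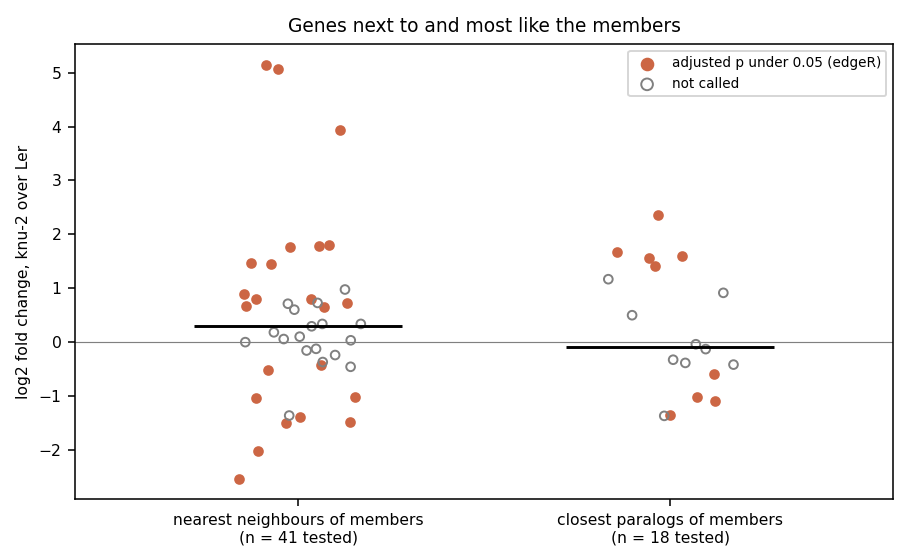
Log2 fold change, knu-2 over Ler, of each tested neighbour (n = 41) and each tested closest relative (n = 18) of the 37 genes. Filled points were called by edgeR at an adjusted p under 0.05, and bars are medians, 0.29 and -0.09. LGO, at 6.31, is not plotted. Of the neighbours plotted, NAC004 at 5.15 and CID9 at 5.06 lie highest.

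MYB80 is known to act late in a chain of tapetum regulators in the order DYT1, TDF1, AMS, MYB80 and MS1. AMS averaged 61.2 ± 11.9 CPM over Ler and 405 ± 120 CPM over knu-2 (SD, n = 3; log2 fold change 2.40, edgeR adjusted p = 1.36e-05). TDF1 averaged 11.1 ± 1.97 CPM over Ler and 35.9 ± 3.74 CPM over knu-2 (SD, n = 3; log2 fold change 1.37, edgeR adjusted p = 0.000345). DYT1 averaged 6.23 ± 0.93 CPM over Ler and 3.44 ± 1.04 CPM over knu-2 (SD, n = 3; log2 fold change -1.18, edgeR adjusted p = 0.0339), a call lost without any Ler replicate (adjusted p of 0.137, 0.0661 and 0.0683 without replicates 1, 2 and 3), without knu-2 replicate 1 (0.0757), with no scaling (0.113) and under the replicate block (0.0527). MS1 had no count in any library. These 4 genes were named for their place in the chain, after their values were seen.

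Outside the set, 17 genes of the tapetum and exine list were found, of which 14 entered the fit, 9 were higher, 2 lower (1 of them DYT1) and 3 neither, and the median log2 fold change was 1.59. Of all genes tested, to be set beside this list and the next, 23.6% were higher and 24.4% lower, with a median of 0.10. Their summed level was 1346 to 1503 CPM in Ler and 2662 to 3587 CPM in knu-2, and MS1 and CYP703A2 were at 0. Those with the smallest p were CYP704B1, a fatty acid hydroxylase (2.85 ± 0.21, edgeR adjusted p = 8.12e-06), and ACOS5, an acyl-CoA synthetase (2.52 ± 0.20, edgeR adjusted p = 1.02e-05), both of which make precursors of the pollen wall. Of 9 pollen coat genes, to which ABCG9 relates by role, 3 entered the fit and 2 were higher, the wax synthesis genes CER3 (1.12 ± 0.22, edgeR adjusted p = 0.00133) and CER1 (0.76 ± 0.21, edgeR adjusted p = 0.0109). Without Ler replicate 3 the call of CER1 was lost (0.61, adjusted p = 0.0563), which left 1 of the 3 higher. The summed level of the list was 67.9 to 88.4 CPM in Ler and 116 to 172 CPM in knu-2, and 5 of the 9, all glycine-rich oleosins (GRP16 to GRP20), were at 0. The part of tapetum cells in the levels of the 37 genes was not tested.

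Phosphate starvation genes, to which AT5G03545 belongs by its annotation, did not move one way. Of 24 listed genes outside the set, 16 entered the fit, 7 were higher, 3 lower and 6 neither, and the median log2 fold change was 0.65. For comparison, 23.6% of all genes tested were higher and 24.4% lower, with a median of 0.10. SRG3 averaged 73.3 ± 14.1 CPM over Ler and 376 ± 117 CPM over knu-2 (SD, n = 3; log2 fold change 2.03, edgeR adjusted p = 3.56e-05). SQD1, which makes the head group of sulfolipids, averaged 22.5 ± 2.83 CPM over Ler and 94.4 ± 15.0 CPM over knu-2 (SD, n = 3; log2 fold change 1.76, edgeR adjusted p = 5.41e-05). The acid phosphatase PAP26, chosen after its values were seen as an example of a fall, averaged 267 ± 22.4 CPM over Ler and 128 ± 7.31 CPM over knu-2 (SD, n = 3; log2 fold change -1.38, edgeR adjusted p = 5.52e-05). The phosphate transporters PHT1;1 and PHT1;3 and the sensor gene SPX3 had no count in any library.

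Lists of other cells and states the collections could hold gave few calls, whereas 48.1% of all genes tested were called in either direction. Several lists held few tested genes, so few calls do not show that such cells were absent. By edgeR, 0 of 16 photosynthesis genes, 0 of 8 ovule and gynoecium genes, 0 of 5 heat shock genes, 0 of 2 seed genes and 0 of 1 endothecium and filament gene were called. At an unadjusted p under 0.05, edgeR gave 0 photosynthesis genes, 0 ovule genes, 1 heat shock gene (lower), 2 seed genes (higher) and 1 endothecium gene (higher). DESeq2 called 0, 0, 1 lower, 1 higher and 0 of them in that order. Of 16 pollen genes, 1 was called lower, of 6 suberin and endodermis genes 1 was higher and 1 lower, of 8 xylem and phloem genes 1 was lower, and of 7 stress and senescence genes 1 was lower. These small counts moved with the libraries: the higher suberin call did not hold when Ler replicate 2, Ler replicate 3 or knu-2 replicate 1 was dropped, and 2 suberin genes were lower without knu-2 replicate 1 or 3. Lower pollen genes numbered 2 and 3 without knu-2 replicates 2 and 3, and lower stress genes numbered 2 without knu-2 replicate 2. With no scaling, 0 xylem and phloem genes were lower, and 1 photosynthesis, 1 ovule, 2 seed, 1 endothecium and 1 pollen gene were called higher. Over all lists the higher calls then went from 20 to 26. At 0 in all 6 libraries were 3 of 16 listed ovule genes (among them STK and INO), 10 of 16 seed genes (among them LEC1 and FUS3), 2 of 13 xylem and phloem genes (VND7 and IRX9), 7 of 12 endothecium genes, 4 of 15 suberin genes, 5 of 15 stress genes (among them SAG12), 2 of 19 pollen genes and no photosynthesis or heat shock gene. Others of these lists were present: ALC of the ovule list averaged 32.6 CPM over Ler and 34.0 CPM over knu-2, ANT 3.37 and 7.88 CPM, and CESA4 of the xylem list 19.5 and 13.3 CPM. The summed level of the 16 seed genes was 3.63 to 6.61 CPM in Ler and 9.67 to 21.3 CPM in knu-2, and that of 12 endothecium and filament genes 2.57 to 3.89 CPM and 5.00 to 7.30 CPM.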

How the data were processed

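Each library has a table of whole-number counts per gene, deposited by the authors without normalization, as judged from the values, and beside each count another value, the gene length. For the aligner, counting tool, genome build and strand setting, the sources used here state nothing. CPM values are counts divided by the library total. The members and the gene lists were chosen with earlier results of these data known.

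Differences were tested with edgeR 4.0.16 in R 4.3.3 (filterByExpr, TMM factors, robust glmQLFit and glmQLFTest, genotype as the only term, all 6 libraries, Benjamini-Hochberg over 18422 genes), and the code was tested on simulated data. The alternatives were DESeq2 1.42.0 and its size factors, no scaling, no filter, a replicate block, leaving out each library and other thresholds. Gene models, coordinates, products and sequences are from RefSeq's TAIR10.1, in which 27445 identifiers were found, 27270 (99.4%) of them with the deposited length. Of the 37 members, 36 matched in length. Relatives were found with BLASTP 2.17.0 at an E-value of 1e-10 or less. Folds against 0 use a floor of 3 counts. Intervals (95%, exact) and floors cover counting error only. Replicates differed by more than sampling noise (chi-square over degrees of freedom of 20.3 or more).

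Members were named by a rule: the highest in knu-2, up to 3 per keyword family, physical clusters, the widest and narrowest spread in knu-2, and those at each threshold. Neighbours, relatives and list genes were named by smallest p. Other genes were named after their values were seen.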

Additional observations from a re-analysis of the deposited data

How the results depend on the processing

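The number of genes in the set depends on the thresholds. It was 17 with a Ler mean under 0.1 CPM, 203 with a Ler mean under 1 CPM, 21 with every Ler library under 0.3 CPM, 73 at 1 CPM or more in each knu-2 library, 12 at 5 CPM or more, and 81 with a knu-2 mean of 2 CPM or more. With TMM-scaled CPM it was 29, and leaving out a library gave 37 to 55. Of the 37 genes, 29, 33 and 35 stayed in the set when Ler replicate 1, 2 or 3 was left out. All 37 stayed when a knu-2 library was left out, which the thresholds require. Without Ler replicate 1, 2 or 3, fitted folds moved by over 1.5 times for 14, 14 and 11 of the 37 genes, and without a knu-2 library for 0 to 3. The edgeR call of 5 of the 37 (AT1G62370, KNAT7, AT1G80745, AT2G23910 and AT5G11130) was lost in 1 or more of the fits without a library. None of the 407 alternative values of the 37 reversed. Nothing is read from that, since the same counts chose the genes. Neighbours called higher numbered 11 to 18 over all alternatives and relatives 4 to 6. Same-numbered libraries did not deviate together (correlations of -0.12, 0.10 and 0.05), so no pairing by number was seen. The labels do not say whether the numbers mark a shared plant, batch or day. With the replicate block 8846 genes were called, against 8856, and 13 neighbours were higher, against 14. Low Ler counts limit every fold here, and counts in Ler cannot separate silence from a changed or missing gene copy. The neighbours without overlap were chosen after seeing the data.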
